A study of Rattus norvegicus with 16 samples.

Results

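The lungs of spontaneously hypertensive (SH) rats and of Sprague Dawley (SD) rats were compared in clean air, without the irritant gas sulfur dioxide (SO2) to which the other groups of the study were exposed. The comparison was defined by the sample labels: 4 arrays labelled SH air against 4 labelled SD air, 8 of the 16 arrays of the series, and again with 7 arrays after the array labelled SD air replicate 2 was left out. Total RNA from lung was hybridised to Affymetrix rat arrays, on which groups of short probes (probe sets) each report 1 transcript. SH rats are inbred and develop high blood pressure, whereas SD rats are outbred, so that SD animals can differ from one another in genotype. Replicates were labelled as biological. Both groups of this comparison received air only. The sources used here give no age, sex, SO2 dose or duration. The series title presents the SH rat as a model of SO2-induced airway disease. The comparison in air asks which genes differed between the strains in animals without that exposure.

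The lung combines a thin gas-exchanging epithelium, conducting airways lined by club and ciliated cells, a dense capillary bed and resident immune cells. Rat strains carry different haplotypes of the major histocompatibility complex, which in the rat is called RT1 and encodes the molecules that present peptides to T cells. The SH strain is also known for a defect in Cd36, a fatty acid transporter at the cell surface. In a whole-tissue extract, fewer cells of a type and less RNA per cell cannot be told apart, and on these arrays a difference in the sequence under a probe set and a difference in RNA amount cannot be told apart either.

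The array labelled SD air replicate 2 stood apart from the other 3 SD air arrays on genes that separate the strains. This was measured against the means of the SO2 arrays, which share no array with the air comparison. The choice of probe sets was not fully separate, since the SO2 calls used a spread pooled over all 16 arrays. Of the probe sets called between the strains in SO2, 51 differed by 1 or more on the log2 scale, and each air array was placed between the SD SO2 mean (position 0) and the SH SO2 mean (position 1) of each. The median positions of the 4 SH air arrays were 0.741, 0.790, 0.917 and 0.785. Those of SD air replicates 1, 3 and 4 were 0.128, 0.111 and 0.180, whereas SD air replicate 2 was at 0.657. It lay nearer the SH side on 37 of the 51 probe sets, compared with 37 to 45 for the SH air arrays and 4 to 10 for the other SD air arrays. Over all probe sets tested its mean correlation was 0.9696 with the SH air arrays and 0.9454 with the other SD air arrays. These means were 0.96 and 0.9516 for SD air replicate 1, 0.9402 and 0.9413 for replicate 3, and 0.9309 and 0.9283 for replicate 4. A higher mean with SH is therefore not particular to replicate 2, though its gap was the widest. No pair of the 16 arrays was identical (0 of 120). The label was kept, and called genes are given with and without SD air replicate 2. Other differences and adjusted p-values in air are from 7 arrays unless 8 are named. Signals, summed signals and array measures include SD air replicate 2 unless it is said to be left out. Because that array was left out for its signals on strain-dependent genes, the p-values from 7 arrays are not independent of that choice. What sets the array apart was not tested.

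**Figure D1:**
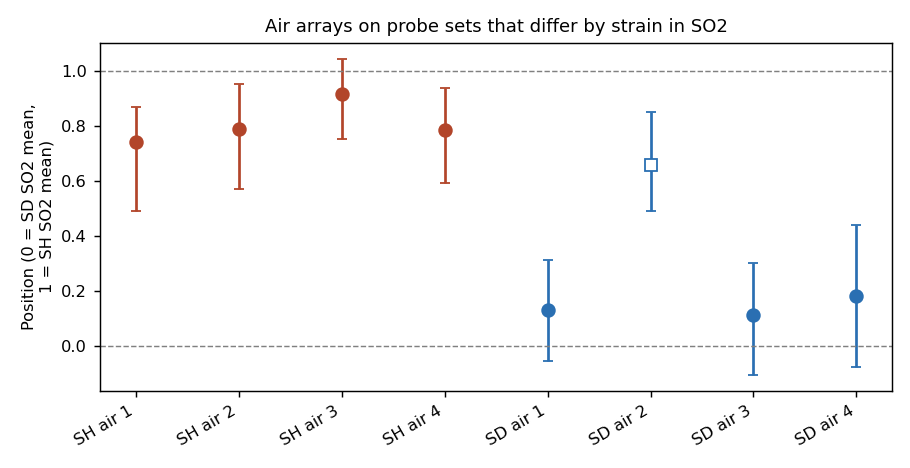
Position of each air array (x axis) between the SD SO2 mean (0) and the SH SO2 mean (1) on 51 probe sets that differed by strain in SO2 (y axis, no unit). Points are medians, bars run from the lower to the upper quartile over probe sets, and the open square, the array labelled SD air replicate 2, sits at 0.657, next to the SH air arrays (0.741 to 0.917) and above the other SD air arrays (0.111 to 0.180).

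With all 8 arrays, 0 of 11106 probe sets (0%) were called at an adjusted p under 0.05 (limma, Benjamini-Hochberg), although 709 (6.38%) had an unadjusted p under 0.05, where 555.3 would be expected by chance. The smallest adjusted p was 0.0504, shared by 5 probe sets, among them those of RT1-T24-4 and Cep295. With 7 arrays, 86 probe sets (0.774%) were called, 43 higher in SH (0.387%) and 43 lower in SH (0.387%), and 1079 (9.72%) had an unadjusted p under 0.05. They represented 61 of 8060 genes (0.757%), 27 higher (0.335%) and 34 lower (0.422%). The absolute log2 differences of these probe sets ran from 0.49 to 4.16 with a median of 0.99, and 42 reached 1. The signals of the groups did not overlap on any of the 8 arrays for 29 of the 86, against 4.02% of all probe sets, and on any of the 7 for all 86, against 11.3%. Because the call was made with those 7 arrays, these last counts follow in part from it. The count of 86 fell to 49, 37 and 43 when SH air replicate 2, 3 or 4 was also left out, and to 51 without SD air replicate 3. Sample titles carried the numbers 40, 41, 42 and 43 for the SH air arrays and 45, 46, 54 and 55 for the SD air arrays. Within these air arrays an effect of that order and of strain cannot be told apart. The SO2 arrays carried 44, 51, 52 and 53 for SH and 47, 48, 49 and 50 for SD. With the title number as a covariate 7 probe sets were called in air. The 3' to 5' ratio of actin, a sign of RNA quality, was 1.49 to 2.36 on SH and 1.40 to 1.76 on SD air arrays. Without SD air replicate 2 the SD range was 1.40 to 1.52. In the text that follows, "called" refers to 7 arrays unless 8 are named, differences are SH minus SD on the scale log2(intensity + 16), which understates the change of dim probe sets, and a fold is the same difference on a linear scale.

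**Figure D2:**
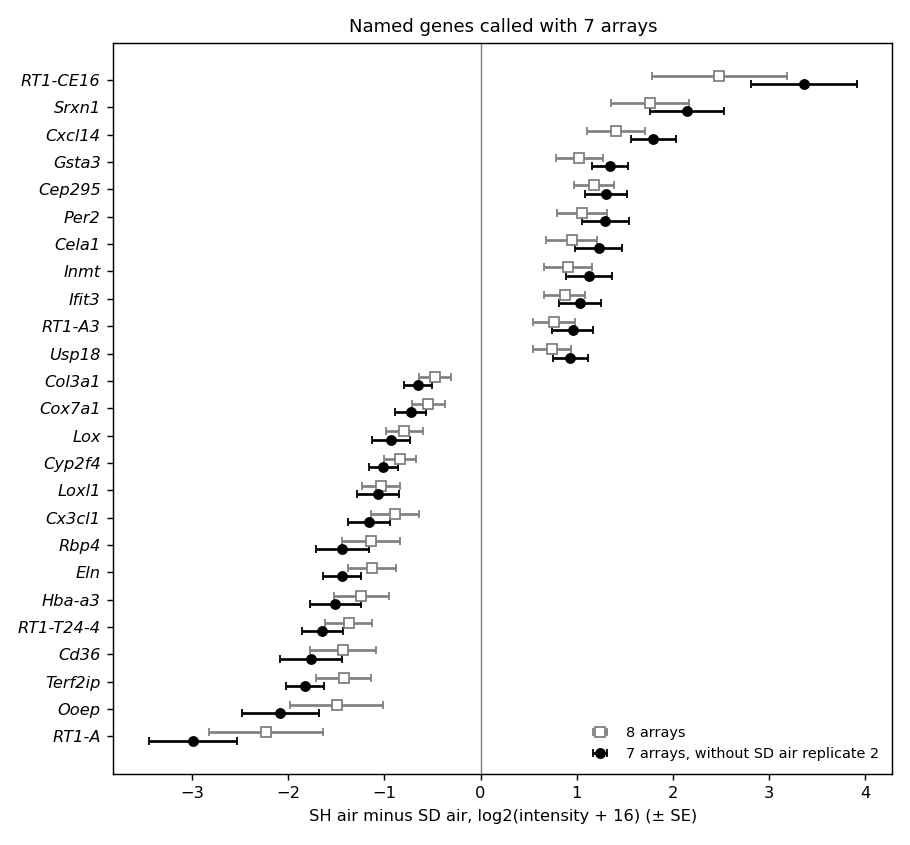
Difference between SH and SD lung in air on the log2(intensity + 16) scale (x axis) for the 25 named genes called with 7 arrays (y axis), with standard errors as bars. Filled circles are from 7 arrays and open squares from 8; the direction was the same in both for every gene shown, and each filled circle lies farther from 0 than its square, with Loxl1 nearly unmoved (-1.06 and -1.03).

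The largest strain differences among named genes were in MHC class I, whose products display peptides from inside the cell to cytotoxic T cells. Of 13 genes of the list tested, 2 were called higher in SH (RT1-CE16 and RT1-A3) and 2 lower (RT1-A and RT1-T24-4), and 9 did not pass. Over all genes tested, 0.335% were called higher and 0.422% lower. With 8 arrays none of the 13 was called. The median difference over the list was 0.18 with 7 arrays and 0.14 with 8, against -0.01 and -0.00 over all genes tested.

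RT1-CE16, a class I heavy chain gene, gave signals of 1961.4, 2230.5, 2747.1 and 2446.4 on SH arrays 1 to 4 and 552.1, 2602.7, 101.7 and 159.6 on SD arrays 1 to 4. SD air replicate 2 was inside the SH range, and the other 3 SD arrays were far below it. The difference was 3.37 (SE 0.55, adjusted p = 0.00455), a 10.3-fold higher level in SH, and 2.49 (SE 0.70, adjusted p = 0.295) with 8 arrays. RT1-A, the classical class I gene, ran the other way, with 73.0, 254.7, 139.3 and 216.2 in SH and 841.4, 151.3, 2153.8 and 1348.8 in SD. Again the array labelled SD air replicate 2 gave a signal within the SH range. RT1-A was lower in SH by 7.95-fold (log2 difference -2.99, SE 0.46, adjusted p = 0.00239; with 8 arrays -2.23, adjusted p = 0.275). RT1-T24-4 gave 1446.3, 1193.3, 1157.4 and 1209.1 in SH and 4617.4, 1818.5, 3936.6 and 3345.8 in SD. Its groups did not overlap on any of the 8 arrays, and it was 3.13-fold lower in SH (-1.64, SE 0.21, adjusted p = 0.000528; with 8 arrays -1.37, adjusted p = 0.0504). RT1-A3 was higher in SH by 0.96 (SE 0.22, adjusted p = 0.0442), with 545.8 to 677.6 in SH and 251.2, 540.0, 307.6 and 385.8 in SD. This call was lost when any of SH air replicates 1 to 4, SD air replicates 1 or 3, or SH SO2 replicates 2 to 4 was also left out (differences from 0.81 to 1.02, adjusted p from 0.0501 to 0.152).

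B2m, the light chain shared by all class I molecules, differed by 0.08 (0.02 with 8 arrays), and RT1-CE10 and RT1-CE12 by -0.31 and -0.26 (-0.13 and -0.15 with 8), none of them called. Peptide-supply genes, including Tap1 of the peptide transporter, had 0 of 12 members called, and MHC class II genes had 0 of 9. The largest class II difference was that of RT1-Bb, -1.925 with 7 arrays (adjusted p = 0.378) and -1.364 with 8 (adjusted p = 0.811). RT1-Ba, another class II chain, has probe sets that disagree in sign. The one that represents the gene differed by 0.32 with 7 arrays (0.32 with 8), and another by -0.96 with 7 (adjusted p = 0.0665). In SO2 the first was at 0.46 (adjusted p = 0.206) and the second at -1.16 (adjusted p = 0.0263). RT1 class I genes are close paralogs, so signal of one could come from another, and their values are uncertain at the level of single genes.

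**Figure D3:**
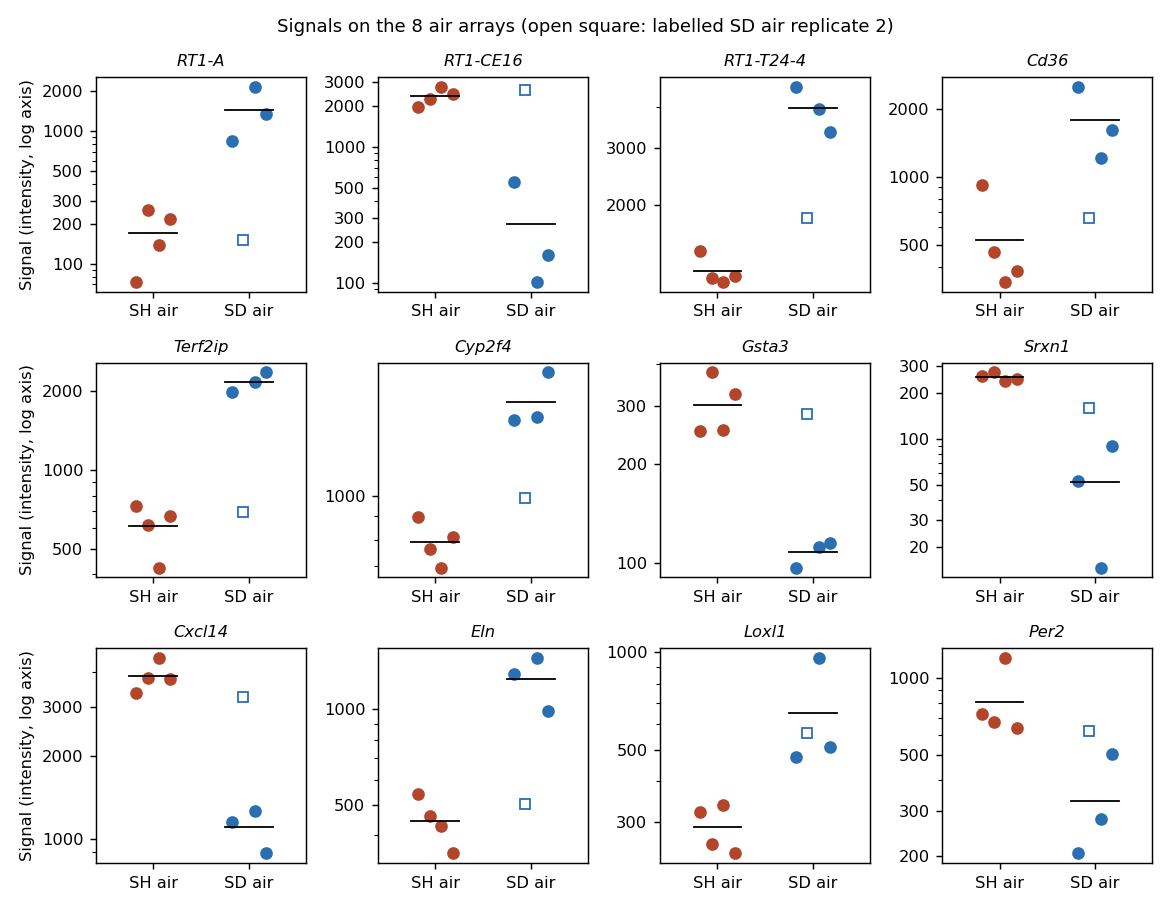
Signals (linear intensity on a log axis) of 12 named genes on the 8 air arrays, SH air in red and SD air in blue. Each point is 1 array, the open square is the array labelled SD air replicate 2, and black lines are the means of the 4 SH arrays and of the other 3 SD arrays. For RT1-A, RT1-CE16, Gsta3 and Eln the open square falls within the range of the SH arrays, while for Loxl1 it falls among the SD arrays.

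Cd36, which carries long-chain fatty acids and oxidised lipids into cells, was 3.40-fold lower in SH lung. Its signals were 915.0, 465.9, 342.0 and 383.9 in SH and 2495.4, 655.1, 1210.6 and 1610.9 in SD. SH air replicate 1 exceeded SD air replicate 2, so the groups overlapped with 8 arrays and not with 7. The difference was -1.77 (SE 0.32, adjusted p = 0.0107) with 7 arrays and -1.43 (adjusted p = 0.179) with 8, and without SD air replicate 1 as well it was -1.49 (adjusted p = 0.0587). It was the only called gene among 36 tested for fatty acid uptake and oxidation, a list whose other members lay between -0.43 (Eci1) and 0.35 (Plin2), with 8 arrays -0.37 and 0.30 for these genes. Cd36 was likewise the only one called among 15 genes reported in the genetics of hypertensive rats. Ephx2, the soluble epoxide hydrolase, differed by 0.04 with 7 arrays (adjusted p = 0.966) and by 0.02 with 8 (adjusted p = 0.995).

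Terf2ip, which encodes a telomere-binding protein, had the smallest adjusted p of the named genes. It gave 733.2, 619.8, 424.8 and 670.0 in SH and 1982.2, 693.8, 2180.0 and 2363.4 in SD. SD air replicate 2 was inside the SH range, and the other SD arrays lay close together. It was 3.55-fold lower in SH (-1.83, SE 0.20, adjusted p = 0.000147; with 8 arrays -1.42, adjusted p = 0.114). Hba-a3, an alpha globin gene, was lower in SH by 1.51 on the log2 scale (SE 0.26, adjusted p = 0.0076), with 416.4 to 1008.9 in SH and 2281.6, 805.7, 1266.0 and 1808.3 in SD. With 8 arrays the difference was -1.24 (adjusted p = 0.171). The beta globin gene Hbb did not pass (-0.39, adjusted p = 0.387; with 8 arrays -0.31, adjusted p = 0.776). The summed signal of 10 erythroid and platelet markers was 10558 to 14236 in SH and 12458 to 18944 in SD, and its part in the result for Hba-a3 was not tested.

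Called genes of chemical and oxidant defence lay in both directions, 1 from each list. Gsta3, a glutathione transferase that conjugates electrophiles, gave 251.6, 378.0, 253.2 and 325.0 in SH and 96.7, 282.7, 111.5 and 114.6 in SD. The 3 SD arrays other than replicate 2 lay within a narrow range, all below the lowest SH array. Gsta3 was 2.54-fold higher in SH (1.35, SE 0.19, adjusted p = 0.00104; with 8 arrays 1.03, adjusted p = 0.179) and was the only one called of 19 glutathione transferase genes. Srxn1, the enzyme that repairs over-oxidised peroxiredoxins, gave 257.5, 272.1, 238.9 and 246.7 in SH and 53.4, 160.4, 14.6 and 90.1 in SD. The groups did not overlap on 8 arrays. Its difference was 2.15 (SE 0.38, adjusted p = 0.0101) with 7 arrays and 1.76 (adjusted p = 0.177) with 8. The SD signals lie toward the dim end of the air arrays, on which the 10th percentile of all probe sets was 17.4 to 24.3. Only SD air replicate 3, at 14.6, was below that percentile on its own array (20.7). The size of this difference depends on SD air replicate 3: without it the value was 1.65 (adjusted p = 0.0548). Among 31 antioxidant genes, many of them targets of the transcription factor Nrf2, Srxn1 alone was called; Hmox1 (haem oxygenase) differed by 1.05 and Akr1b8 by 0.81 (0.86 and 0.67 with 8 arrays), Nqo1 by -0.13, Gclc by 0.15 and Gclm by -0.02 (-0.05, 0.16 and -0.02 with 8), none called.

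Cyp2f4, a cytochrome P450 of club cells that activates inhaled aromatic compounds, was 2.01-fold lower in SH. It gave 898.0, 760.4, 693.3 and 812.3 in SH and 1471.7, 988.3, 1492.7 and 1874.5 in SD, with no overlap on 8 arrays. The difference was -1.01 (SE 0.15, adjusted p = 0.00144) with 7 arrays and -0.84 (adjusted p = 0.0979) with 8. The other 24 genes of the cytochrome P450 list were not called, from -0.37 (Cyp2a3) to 0.81 (Cyp2e1), with 8 arrays -0.33 and 0.57 for these genes. Gsta3 and Cyp2f4 are both listed as club cell markers, and went in opposite directions. The summed signal of the 7 club cell markers was 37969 to 40248 in SH and 39119 to 41976 in SD, and Scgb1a1, the secretoglobin that defines these cells, ran from 22863 to 28437 over all 8 arrays. Inmt, an indole methyltransferase listed with fibroblasts, was higher in SH by 1.13 (SE 0.24, adjusted p = 0.0323; with 8 arrays 0.91, adjusted p = 0.288). Its call was lost when any of SH air replicates 2 to 4 or SD air replicates 3 or 4 was also left out (0.93 to 1.22, adjusted p from 0.0534 to 0.202). Suox, sulfite oxidase, which converts the sulfite formed from SO2 into sulfate, gave 384.9 to 430.6 in SH and 270.8 to 393.4 in SD and did not pass (0.37, adjusted p = 0.573; with 8 arrays 0.32, adjusted p = 0.812). None of 17 sulfur metabolism genes was called.

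Of 25 interferon-response genes tested, 20 had a difference above 0 with 7 arrays and 20 with 8, against 3832 and 3964 of all 8060 genes. The list median was 0.30 with 7 arrays and 0.26 with 8. In SO2, 13 of the 25 were above 0 and the median was 0.08. There 2 of the 25 were called, against 65 of all 8060 genes. They were Irf7 (1.01, adjusted p = 0.0368) and Mx2 (0.80, adjusted p = 0.0446). Counted by the probe set that represents each gene, 2 members were called with 7 arrays, Usp18 and Ifit3, where 0.757% of all genes were. With 8 arrays none was called. Usp18, a protease that removes the ubiquitin-like protein Isg15 and restrains interferon signalling, gave 654.8, 640.9, 932.9 and 641.2 in SH and 302.0, 634.2, 403.2 and 391.4 in SD. The groups did not overlap, although SD air replicate 2 was just under the lowest SH array. The difference was 0.93 (SE 0.18, adjusted p = 0.0149) with 7 arrays and 0.74 (adjusted p = 0.275) with 8, and the call was lost without SH air replicate 3 or SD air replicate 1 (0.80 and 0.81, adjusted p from 0.064 to 0.0782). Ifit3, an interferon-induced antiviral protein, gave 475.5, 486.5, 644.1 and 427.3 in SH and 231.6, 377.4, 185.5 and 310.0 in SD, again without overlap. Its difference was 1.03 (SE 0.22, adjusted p = 0.029) with 7 arrays and 0.87 (adjusted p = 0.19) with 8. Without any of SH air replicates 1 to 3 or SD air replicates 1 or 3 it was 0.87 to 1.06 and no longer called (adjusted p from 0.0554 to 0.18). Irf7 (0.91, and 0.74 with 8 arrays), Mx1 (0.80 and 0.67), Bst2 (0.75 and 0.59) and Ifit1 (0.68 and 0.57) did not pass.

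Ifit3, Gsta3 and Srxn1 were called and belong to families with a known promoter element. Of these, the regions just upstream of Ifit3 and of Gsta3 are shown because each held a match to the element searched. Usp18 was called too, but no upstream sequence was found for it. In the RefSeq annotation of assembly GRCr8, 250 bases before each start were searched on both strands, Ifit3 for the interferon-stimulated response element (GAAA, then any 2 bases, then GAAA) and Gsta3 and Srxn1 for the antioxidant response element (TGACNNNGC). The upstream sequences, each on the + strand with the match in capitals, are those of Ifit3 at chr1:241527076-241527325 and of the first annotated Gsta3 start at chr9:31154739-31154988.
Ifit3: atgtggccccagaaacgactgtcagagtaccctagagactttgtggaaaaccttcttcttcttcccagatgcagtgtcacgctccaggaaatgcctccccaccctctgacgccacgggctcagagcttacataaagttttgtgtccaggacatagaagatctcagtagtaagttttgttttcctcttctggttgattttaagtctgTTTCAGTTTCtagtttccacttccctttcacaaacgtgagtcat
Gsta3: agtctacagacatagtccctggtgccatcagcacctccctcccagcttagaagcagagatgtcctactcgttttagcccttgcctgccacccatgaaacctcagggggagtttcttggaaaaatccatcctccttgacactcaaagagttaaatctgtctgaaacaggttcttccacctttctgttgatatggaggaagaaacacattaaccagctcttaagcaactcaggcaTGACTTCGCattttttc
The Ifit3 match lies 44 bases before the start, on the opposite strand, and the Gsta3 match lies 17 bases before its start. Of 33469 promoters of this length, 3.41% held the first motif and 10.1% the second. A second annotated start of Gsta3 and the start of Srxn1 held no match in this window. Each promoter was searched for 1 motif, and a match is a description of the letters only.

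Other called interferon-related probe sets were chosen after their values were seen. Mx2, an antiviral GTPase, is on the interferon list but is represented there by another probe set than the called one. The called Mx2 probe set gave 576.8, 846.7, 946.4 and 740.6 in SH and 117.0, 653.0, 72.2 and 293.0 in SD. Its difference was 2.35 (SE 0.30, adjusted p = 0.000533) with 7 arrays and 1.82 (adjusted p = 0.147) with 8. The other Mx2 probe set differed by 0.65 (adjusted p = 0.224) with 7 and 0.66 (adjusted p = 0.295) with 8. On the SO2 arrays both Mx2 probe sets were called. The one called in air was at 4.11 there (adjusted p = 3.355e-05) and the other at 0.80 (adjusted p = 0.0446). The interferon receptor chains Ifnar1 and Ifngr1 went in opposite directions, Ifnar1 higher (0.80, adjusted p = 0.0133; with 8 arrays 0.60, adjusted p = 0.351) and Ifngr1 lower (-0.58, adjusted p = 0.0239; with 8 arrays -0.52, adjusted p = 0.141). Of the other 3 Ifnar1 probe sets, none was called.

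Elastin, the enzymes that cross-link it and a fibrillar collagen were called lower in SH lung in air. Of 53 extracellular matrix genes tested, 4 were called lower (Eln, Loxl1, Lox and Col3a1) and 0 higher with 7 arrays. Over all genes tested, 0.422% were called lower and 0.335% higher. With 8 arrays none of the 53 was called. With 7, 19 of the 53 had a difference above 0, against 3832 of all 8060 genes. With arrays centred on their medians, 2 were called lower with 7 arrays, and Lox and Col3a1 were lost. The list median was -0.12 with 7 arrays and -0.11 with 8. Eln, which encodes elastin, the protein of elastic recoil, gave 541.4, 460.6, 427.7 and 351.9 in SH and 1290.0, 501.6, 1449.4 and 986.4 in SD. SD air replicate 2 was inside the SH range. Elastin was 2.72-fold lower in SH (-1.45, SE 0.20, adjusted p = 0.00088; with 8 arrays -1.13, adjusted p = 0.147). Loxl1, an enzyme that cross-links elastin, gave 322.4, 256.4, 338.4 and 240.4 in SH and 475.8, 565.0, 961.3 and 511.5 in SD. On this gene SD air replicate 2 was among the other SD arrays, and the difference was nearly the same with 8 arrays (-1.03, adjusted p = 0.0816) as with 7 (-1.06, SE 0.22, adjusted p = 0.0239). The call was lost without SH air replicate 2, SH air replicate 4 or SD air replicate 3 (-1.01 to -0.75, adjusted p from 0.082 to 0.156).

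Lox, the related cross-linking enzyme, gave 447.7, 483.3, 325.1 and 362.4 in SH and 801.5, 527.7, 841.2 and 691.2 in SD, without overlap. It differed by -0.93 (SE 0.20, adjusted p = 0.029) with 7 arrays and -0.79 (adjusted p = 0.179) with 8. Another Lox probe set differed by -0.66 (adjusted p = 0.474; with 8 arrays -0.51), and the call was lost without SH air replicate 3 or 4 or SD air replicate 1 or 3 (-0.91 to -0.83, adjusted p from 0.0822 to 0.143). Col3a1, a fibrillar collagen chain, gave 4433.8 to 4991.2 in SH and 6729.8, 4522.1, 7944.1 and 7422.2 in SD. Its difference was the smallest of the 4 called matrix genes, -0.65 (SE 0.15, adjusted p = 0.0459), and -0.48 (adjusted p = 0.523) with 8 arrays. It was lost when any of the other 7 air arrays or any of SD SO2 replicates 1 and 2 and SH SO2 replicates 3 and 4 was left out (-0.71 to -0.59, adjusted p from 0.0525 to 0.216). Of the other fibrillar collagens of the list, Col1a1 (-0.65), Col5a1 (-0.59), Col1a2 (-0.38) and Col5a2 (-0.20) did not pass, with 8 arrays -0.50, -0.49, -0.32 and -0.14. The microfibril genes did not pass in either direction, with Fbn1 at -0.20, Mfap4 at -0.22, Mfap5 at -0.31 and Mfap2 at 0.34 (with 8 arrays -0.19, -0.24, -0.27 and 0.22). The summed signal of 20 smooth muscle markers was 24511 to 26426 in SH and 23747 to 31410 in SD. That of 14 fibroblast markers was 20799 to 25763 in SH and 20584 to 24145 in SD (20584 to 22482 without SD air replicate 2). Their part in the matrix genes was not tested.

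Chemokines differed in both directions. Cxcl14, an epithelial chemokine that attracts monocytes, gave 3346.2, 3794.9, 4489.3 and 3782.3 in SH and 1152.1, 3255.5, 1264.3 and 891.5 in SD. SD air replicate 2 lay just below the SH arrays and well above the other SD arrays. Cxcl14 was 3.48-fold higher in SH (1.80, SE 0.24, adjusted p = 0.000548; with 8 arrays 1.41, adjusted p = 0.141). Cx3cl1, the membrane-bound chemokine fractalkine, gave 432.0 to 707.6 in SH and 1452.3, 615.4, 1857.1 and 838.3 in SD. It was lower in SH by 1.16 on the log2 scale (SE 0.22, adjusted p = 0.0136; with 8 arrays -0.89, adjusted p = 0.295), and its call was lost without SH air replicate 3 or SD air replicate 1 or 3 (-1.09 to -0.91, adjusted p from 0.0594 to 0.112). Cx3cl1 was the only called gene of the 24 tested on the list of inflammatory cytokines and chemokines, which does not include Cxcl14. On that list, Il1b, Ccl3 and Icam1 differed by 0.18, 0.17 and 0.07 (0.13, 0.18 and 0.02 with 8 arrays). Cklf and the chemokine receptor gene Cxcr1, off the list and named after their values were seen, were called higher in SH. Cklf was at 0.95 (adjusted p = 0.029) and Cxcr1 at 1.08 (adjusted p = 0.0466). With 8 arrays they were at 0.69 (adjusted p = 0.48) and 0.90 (adjusted p = 0.288). S100a8, a neutrophil calcium-binding protein, gave 363.5, 515.3, 325.5 and 204.4 in SH and 85.5, 446.1, 82.6 and 211.6 in SD and did not pass (1.42, adjusted p = 0.0571; with 8 arrays 0.96, adjusted p = 0.683). With 7 arrays it was called under quantile normalization (1.43, adjusted p = 0.039) and median centring (1.45, adjusted p = 0.0468), with array weights (1.56, adjusted p = 0.011), and without SH air replicate 4, SD air replicate 4 or SD SO2 replicate 2 (1.42 to 1.81); over the alternatives run for S100a8 without SD air replicate 2 the adjusted p ran from 0.011 to 0.9999. The summed signal of 10 neutrophil markers was 8048.5 to 14115 in SH and 4861.4 to 9790.2 in SD (4861.4 to 8803.9 without SD air replicate 2). C5ar1, the receptor for the complement fragment C5a, was at 878.0 to 995.5 in SH and 594.0 to 709.4 in SD without overlap, and did not pass (0.55, adjusted p = 0.0618; with 8 arrays 0.50, adjusted p = 0.179). C5ar1 without SD air replicate 2 was called when SD SO2 replicate 1 was also left out (adjusted p = 0.0406).

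Per2, a core repressor of the circadian clock, was higher in SH, with 720.9, 673.2, 1202.0 and 637.9 in SH and 205.4, 622.3, 281.1 and 502.9 in SD. The groups did not overlap on 8 arrays. Its difference was 1.30 (SE 0.24, adjusted p = 0.0134) with 7 arrays and 1.05 (adjusted p = 0.19) with 8, and it was not called without SH air replicate 3 or SD air replicate 1 or 3 (1.02 to 1.23, adjusted p from 0.0523 to 0.0742). Of 16 clock genes, 12 were above 0 with 7 arrays and 12 with 8 (7 in SO2), against 3832 and 3964 of all 8060 genes in air. Per2 was the only clock gene called, where 0.757% of all genes were. Per1 differed by 1.36 and Dbp by 0.58 (1.03 and 0.35 with 8 arrays). Bmal1, the activator that oscillates in antiphase to the Per genes, was at -0.67 (-0.48 with 8), and none of these was called. The hour of sampling is not given in the sources used here, and its part in these values was not tested.

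The remaining named genes belong to no common list. Cela1, a serine protease with elastase activity, was higher in SH, with 1036.9 to 1239.6 against 576.4, 1031.0, 586.5 and 303.5 in SD (1.23, SE 0.24, adjusted p = 0.0156; with 8 arrays 0.95, adjusted p = 0.295). Its call was lost without SH air replicate 2 or 4 or SD air replicate 4 (0.93 to 1.22, adjusted p from 0.0549 to 0.0915). Cep295, a centriole protein, was at 216.6 to 276.6 in SH and 98.7, 130.3, 98.8 and 65.0 in SD. It had one of the smallest adjusted p-values with 8 arrays (1.18, adjusted p = 0.0504) and was called with 7 (1.31, SE 0.22, adjusted p = 0.00463), whereas its other probe set differed by 0.69 (adjusted p = 0.53; with 8 arrays 0.56).

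Rbp4, the plasma carrier of retinol, was lower in SH, with 67.9 to 119.1 in SH and 230.3, 101.3, 321.6 and 219.3 in SD (-1.44, SE 0.28, adjusted p = 0.0149; with 8 arrays -1.14, adjusted p = 0.279). It was not called without SH air replicate 2 or 3 or SD air replicate 3 (-1.36 to -1.27, adjusted p from 0.0578 to 0.127). Ooep, a gene known from oocytes, varied widely within both groups, from 117.2 to 483.7 in SH and 706.8, 190.2, 703.6 and 2198.2 in SD (-2.08, SE 0.40, adjusted p = 0.014; with 8 arrays -1.50, adjusted p = 0.438). Without SH air replicate 3 or 4 or SD air replicate 4 its difference was -1.98 to -1.54 and not called (adjusted p from 0.0549 to 0.0787). Cox7a1, the muscle form of a cytochrome c oxidase subunit, was lower in SH by 0.73 on the log2 scale (SE 0.16, adjusted p = 0.0327; with 8 arrays -0.54, adjusted p = 0.438), alone among 75 respiratory chain genes. That call was lost without SH air replicate 1, 3 or 4 or SD air replicate 1 or 4 (-0.76 to -0.63, adjusted p from 0.0554 to 0.151). Cox7a1 is also a muscle marker. The summed signal of 40 heart and skeletal muscle genes was 7697.8 to 9968.8 in SH and 7861.4 to 12622 in SD (8200.8 to 12622 without SD air replicate 2). The part of muscle in the result was not tested.

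Of the called probe sets with 1 symbol that are not named by the rule, 20 were higher in SH, from 0.49 to 2.35, and 23 were lower, from -1.35 to -0.57. Chosen after their values were seen, they included Cd300c2, an immune receptor gene with 400.0 to 429.3 in SH and 1040.7, 539.5, 872.1 and 806.5 in SD (-1.11, adjusted p = 0.000414; with 8 arrays -0.93, adjusted p = 0.0504). The airway defensin gene Defb4 was at 6876.6 to 9967.1 in SH and 15477.1, 8378.4, 14625.0 and 12630.3 in SD, and was lower in SH (-0.78, adjusted p = 0.00463; with 8 arrays -0.59, adjusted p = 0.275). Epas1, a hypoxia-inducible factor abundant in lung endothelium, was lower as well (-0.59, adjusted p = 0.0341; with 8 arrays -0.52, adjusted p = 0.179). Among 14 called genes with several probe sets tested, all probe sets had one sign in 9 and signs differed in 5, and in 0 were all probe sets called. Isca1, with -1.16 and -0.70, was among the former. A Ythdf2 probe set was called lower (-1.35, adjusted p = 0.000996; with 8 arrays -1.07, adjusted p = 0.141) while another was at 0.65 (adjusted p = 0.319). A Csnk2a1 probe set was called higher (1.99, adjusted p = 0.0323; with 8 arrays 1.54, adjusted p = 0.351) while the others were at 0.14 and -0.05. A Sftpa1 probe set was called higher (0.49, adjusted p = 0.0141; with 8 arrays 0.38, adjusted p = 0.279), and the other one differed by 0.07 (adjusted p = 0.918). In gene order on the rat chromosomes, 0 of 60 called genes had another called gene within 5 genes on either side, against 1.94% of 8039 tested genes that had a called gene that near.

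The same strain contrast on the 8 SO2 arrays is given beside the air values. In SO2, 90 probe sets (0.81%) were called with all 16 arrays in the fit. The spread was pooled over all groups, so the air arrays entered the SO2 calls and the SO2 arrays the air calls. Of the 86 called in air with 7 arrays, 85 had the same sign in SO2, against 55.7% of all probe sets; the exception was Aff1 (0.56 in air, -0.02 in SO2), named after its value was seen. Both comparisons called 33 probe sets, 38.4% of the 86 and 36.7% of the 90. With SD air replicate 2 left out of the SO2 fit too, 115 (1.04%) were called in SO2 and 46 in both, 53.5% of the 86 and 40% of the 115. On the SO2 arrays the signals of the strains did not overlap for 66 of the 86, against 5.58% of all probe sets. The 4 class I genes called in air were called in SO2 as well, RT1-CE16 at 3.30 (adjusted p = 0.0244), RT1-A at -3.01 (adjusted p = 0.0146), RT1-T24-4 at -1.87 (adjusted p = 0.000282) and RT1-A3 at 1.35 (adjusted p = 0.00299). RT1-CE5, at 0.81 in air (0.62 with 8 arrays), was at 1.40 in SO2 (adjusted p = 0.0489). Cd36 and Terf2ip were at -2.45 (adjusted p = 0.000731) and -2.61 (adjusted p = 7.22e-05), Cyp2f4 at -1.26 (adjusted p = 0.000282), Gsta3 at 1.26 (adjusted p = 0.0141) and Cxcl14 at 2.03 (adjusted p = 0.00119). The matrix genes did not pass in SO2: Eln was at -0.15 (adjusted p = 0.906), Loxl1 at -0.09 (adjusted p = 0.929), Lox at -0.26 (adjusted p = 0.695) and Col3a1 at -0.15 (adjusted p = 0.832). Per2 (0.49, adjusted p = 0.542), Usp18 (0.63, adjusted p = 0.175) and Srxn1 (1.38, adjusted p = 0.146) did not pass either. No gene was shown to differ between the contrasts: the test of the difference called 0 probe sets (0%) with 8 air arrays, with 516 at an unadjusted p under 0.05, and 0 (0%) with 7, with 656 at that level. For Eln the difference between the contrasts was -1.30 with 7 arrays (adjusted p = 0.629).

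**Figure D4:**
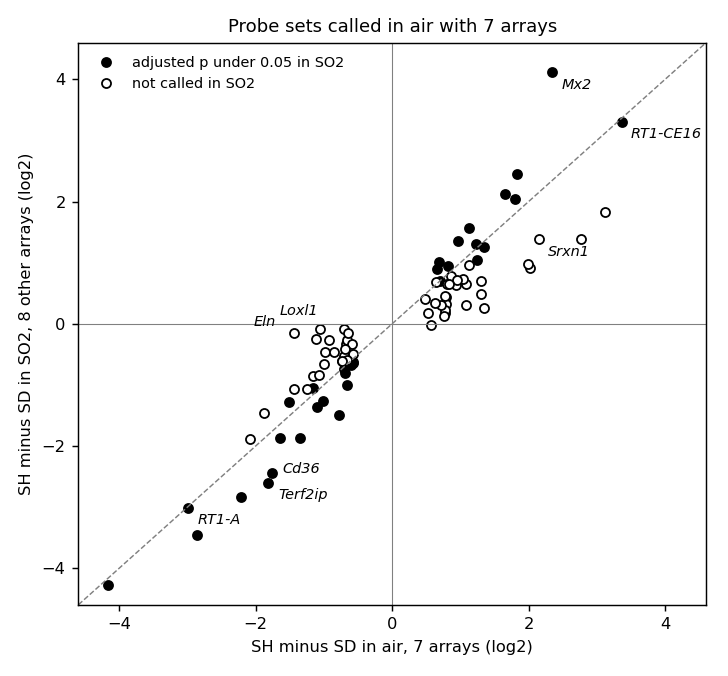
SH minus SD difference in air from 7 arrays (x axis) against that in SO2 from 8 other arrays (y axis), both on the log2 scale, for the 86 probe sets called in air. Filled points, 33 in number, were also called in SO2; RT1-A, RT1-CE16, Cd36 and Terf2ip lie far from 0 on both axes, whereas Eln and Loxl1 lie at -0.15 and -0.09 on the SO2 axis.

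Lists without a called member in air covered antigen processing, complement, sulfur metabolism, sterol synthesis, blood pressure signals, the acute phase, heat shock, the immediate early and glucocorticoid responses, proliferation and ribosomal proteins. Among 32 genes of blood pressure and vasoactive signals the median was -0.07 with 7 arrays and with 8. The smallest p with 8 arrays was that of Hsd11b2, which inactivates glucocorticoids (-0.72, adjusted p = 0.683). With 7 arrays Hsd11b2 was at -0.78 (adjusted p = 0.431). Of 28 heat shock and unfolded protein genes, 22 were above 0 with a median of 0.13 (21 and 0.14 with 8 arrays, and 15 in SO2). Of 20 proliferation genes, 5 were above 0 (7 with 8 arrays). Over all 8060 genes, 3832 were above 0 with 7 arrays and 3964 with 8. Stmn1, a microtubule regulator, was at -0.85 (adjusted p = 0.0571; with 8 arrays -0.68, adjusted p = 0.355), and Stmn1 without SD air replicate 2 was called when any of SD air replicate 1, SD SO2 replicate 1 or 3 or SH SO2 replicate 2 was also left out (-1.05 to -0.85, adjusted p from 0.0294 to 0.047). Counted by the probe set that represents each gene, cell type markers had no called member for alveolar type I and type II cells, ciliated cells, mucous cells, macrophages, T cells, endothelium, smooth muscle and adipocytes. The called probe set of Sftpa1, a type II marker, is not the one that represents that gene. Lung identity was plain on all 8 arrays, with Sftpc, a surfactant protein, from 24722 to 30036 and Ager, of alveolar type I cells, from 12444 to 16389, while Alb, of liver, was 53.2 to 154.3.

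**Figure D5:**
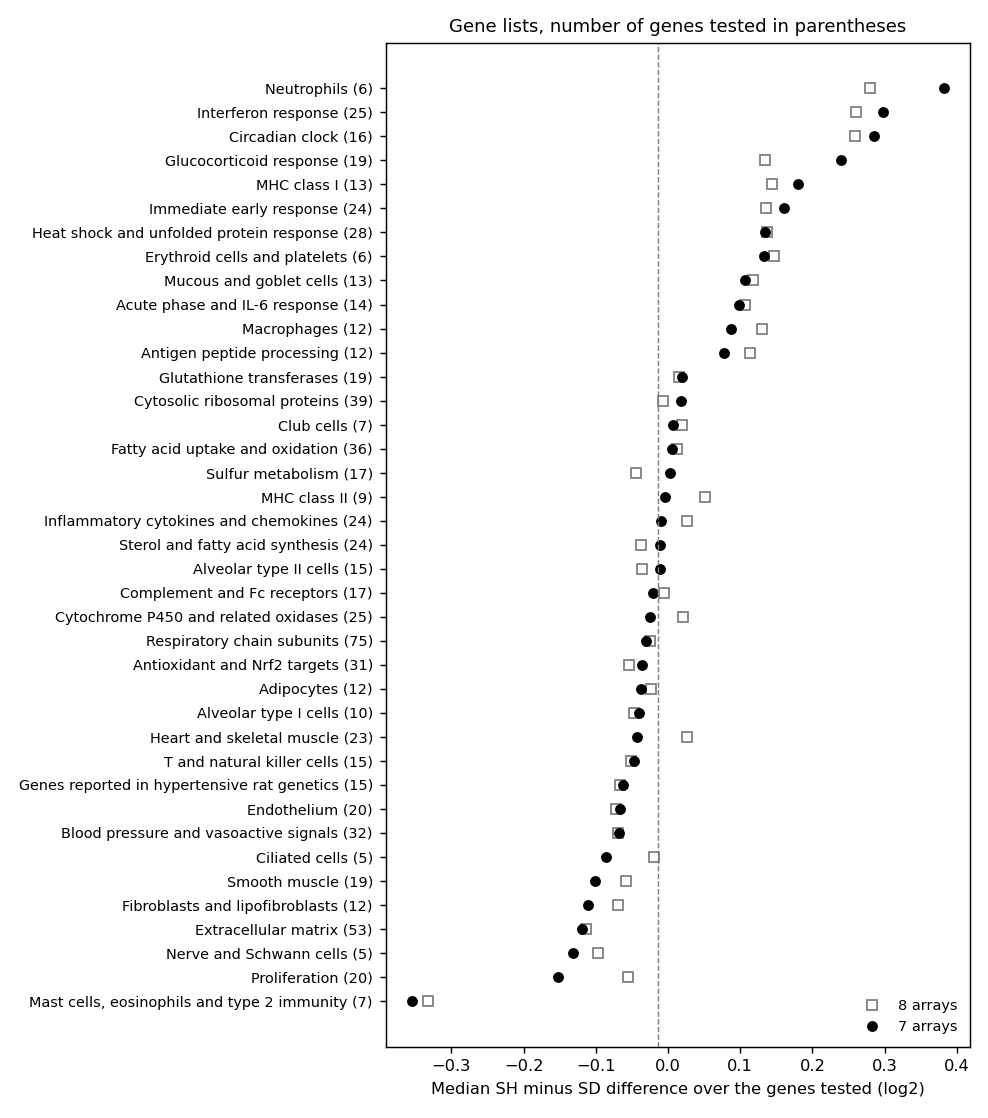
Median SH minus SD difference in air (x axis, log2) over the tested genes of each list with 5 or more tested (y axis, number tested in parentheses), from 7 arrays (filled circles) and 8 (open squares). The dashed line is the median over all genes with 7 arrays (-0.01); neutrophil (0.38), interferon (0.30) and clock genes (0.29) lie highest, and mast cell genes (-0.35) and proliferation genes (-0.15) lowest among the lists plotted.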

How the data were processed

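The deposited table holds 1 linear intensity per probe set and array; per the submitters' processing notes it was made in GCOS, Affymetrix software whose version and algorithm the sources used here do not give. The 57 control probe sets were left out, and the 30% of the other 15866 with the lowest mean over 16 arrays, which left 11106. The deposited scaling was kept, since trimmed means (2% each side) differed by a factor of 1.00069 at most. Values were taken as log2(intensity + 16). All tests were run in R 4.3.3 with limma 3.58.1 (lmFit, eBayes with a trend), with 1 mean per group over all 16 arrays (12 residual degrees of freedom), or over 15 without SD air replicate 2 (11), Benjamini-Hochberg adjustment over 11106 probe sets and a threshold of 0.05. The fitting steps were checked on simulated data in which no array was set apart. That check does not cover the choice to leave out SD air replicate 2. Python 3.11.15 with matplotlib 3.10.9 drew the figures. The number of arrays limits the precision.

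A gene's probe set of highest mean represents it. Of 12783 probe sets with 1 symbol, 12748 matched a RefSeq gene table of assembly GRCr8 by Entrez identifier, used for names, gene order and promoters, and 0 symbols changed; 312 had several symbols and 2771 none here, and these were tested and not named. Promoters were found for 44 of the 55 named genes. Named genes include the 8 largest differences in each direction among genes called with 7 arrays whose groups do not overlap. With 8 arrays the corresponding rule named none. Added to these are up to 4 called members of each list, and Cd36, Ephx2, Terf2ip and Suox. A list with no called member gave the 1 gene of smallest p with 8 arrays. The members of this comparison and the gene lists were chosen with earlier results of these data known. Alternatives covered the offset, scaling, filter, prior, array weights, quality and title-number covariates, the replicate number as a block, averaged probe sets, the groups in the fit, and each array left out in turn. P-values set each difference against the spread between arrays within groups, pooled over the groups in the fit. The same spread was assumed for inbred SH and outbred SD animals.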

Additional observations from a re-analysis of the deposited data

Results flagged for a closer look

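In each group of 4 air arrays, the gap of the highest or lowest signal to its neighbour was divided by the group's range for the 55 named genes, and compared with Dixon's critical value; 8 of 110 groups exceeded it, where chance alone gives about 1 in 20 groups. That rate is no yardstick for the array labelled SD air replicate 2, since the genes were chosen from results that leave it out. That array was the extreme one for 3 of them: Gsta3 (0.849), Terf2ip (0.856) and Krt5 (0.858). SD air replicate 3 was the extreme one for Mat2a (0.873), Hsd11b2 (0.924) and Acta2 (0.891). SH air replicate 3 was the extreme one for Usp18 (0.943), and SH air replicate 2 for Pigr (0.878).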

How the results depend on the processing

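With 8 air arrays the count of 0 called probe sets became 5 with an offset of 64, 1 without the filter on dim probe sets, 1 without a trend in eBayes, 28 with array weights and 2 with the 10th percentile and actin ratio as covariates. Leaving out each array in turn gave 0 to 86, with 86 only without SD air replicate 2 and 1 without SH air replicate 1. With 7 arrays the 86 became 155 with array weights and 7 with the title number as a covariate, where 23 of the 25 named genes called were lost and Cxcl14 and Terf2ip kept; all 25 kept their sign there, with differences of at least 0.45 times those without it. Leaving out a further array gave 37 to 93, and the other settings 59 to 92. In SO2 the 90 became 139 with the quality covariates, and 50 to 115 with each array left out. The test between the contrasts gave 0 calls under every alternative run. With the replicate number as a block, the counts were 0 for 8 air arrays, 61 for 7 and 86 in SO2. The numbers did not pair the samples (correlations of same-numbered SH and SD air arrays 0.00457, -0.124, 0.033 and -0.0292), and arrays did not all correlate best with their own number. Signs turned for genes that did not pass: RT1-Ba with probe sets averaged (-0.20 with 8 arrays, -0.32 with 7), Cd79b (0.38 and 0.11) and Rpl41 without SD air replicate 2 (0.054) with the title number, and, with each array left out in turn, Ephx2 (-0.10 to 0.16), Ephx2 without SD air replicate 2 (-0.12 to 0.25) and Lpcat1 without SD air replicate 2 (-0.74 to 0.015, above 0 only without SD air replicate 3). The cause of these changes was not tested. Over the named genes and settings, 7 arrays gave 1450 values on the same side of the threshold, 110 that lost and 18 that gained a call, and 8 arrays 1596, 0 and 37. The small number of arrays and signals near background limit all values, and detection calls were not used here.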
